A study of Mus musculus with 8 samples.

Results

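The 10 genes described here carry out peptide presentation on MHC class II molecules. H2-Aa, H2-Ab1 and H2-Eb1 encode chains of class II molecules, and Cd74 encodes the invariant chain. H2-DMa, H2-DMb1, H2-DMb2 and H2-Ob act in peptide exchange, Ctss encodes a protease, and Ciita encodes the transcriptional activator of the family. These members were chosen by symbol, and all 10 were found among the 55421 gene identifiers of the deposited count table. All were among the 12997 genes kept after removal of low counts. RNA was sequenced from splenic germinal centre B cells of C57BL/6 mice aged 8 to 10 weeks, taken at day 10 after immunization with a bead kit that uses the lectin PNA. Each genotype, Smarca4+/+ or Smarca4+/-, was sampled in a CB and a CC fraction, which makes 4 groups of 2 libraries. CB and CC are the labels' names for the fractions and are read here as centroblasts and centrocytes. The Smarca4+/- animals carried 1 intact copy of Smarca4, which encodes the SWI/SNF remodelling ATPase Brg1, and the labels name neither a Cre driver nor how the mutant allele was made. Nothing in the labels tells whether 2 replicates came from separate animals, so each p-value rests on a spread that may be technical. In mm10, 7 of the genes lie within chromosome 17 from 34119541 (H2-DMa) to 34316674 (H2-Eb1), Ciita lies on chromosome 16 (10480059 to 10528418), Ctss on chromosome 3 (95526786 to 95556403) and Cd74 on chromosome 18. Each value below is for a whole gene, not for single exons.

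B cells present antigen that they captured with their receptor. The alpha and beta chains of a class II molecule assemble in the endoplasmic reticulum with the invariant chain, which blocks the groove and directs the complex to endosomes. There cathepsin S, the product of Ctss, cuts the invariant chain down to a short peptide, H2-DM (a dimer of H2-DMa with H2-DMb1 or H2-DMb2) exchanges that peptide for antigen, and H2-O, made from H2-Oa and H2-Ob, holds H2-DM back in B cells. Ciita does not bind DNA itself but docks on RFX, CREB and NF-Y proteins at the X and Y boxes of class II promoters. In the germinal centre, light zone B cells show peptide on class II to T follicular helper cells and compete for their help.

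Promoter stretches are shown for 4 members, none of which passed the main test in any comparison below. The stretches carry the Y box letters, and those of H2-Eb1 and H2-Ob the X box core as well. Each is read 5′ to 3′ on the gene's own strand from the RefSeq promoter table (GRCm38.p6), which held 8 entries for 7 of the 10 genes, with 250 bases before and 50 after the start site. Capitals mark AGCAAC, the core of the X box, and ATTGG, the Y box (CCAAT on the other strand).

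H2-Eb1, chr17:34305753-34305852, plus strand: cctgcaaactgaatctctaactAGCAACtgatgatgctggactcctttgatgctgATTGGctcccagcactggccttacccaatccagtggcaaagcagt
H2-Ob, chr17:34238793-34238892, plus strand: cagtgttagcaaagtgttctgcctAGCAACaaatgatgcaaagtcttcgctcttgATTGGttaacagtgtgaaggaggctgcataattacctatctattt
H2-Aa, chr17:34287827-34287926, minus strand: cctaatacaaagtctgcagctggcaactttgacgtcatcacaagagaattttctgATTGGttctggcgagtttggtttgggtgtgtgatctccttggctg
H2-DMb2, chr17:34145104-34145203, plus strand: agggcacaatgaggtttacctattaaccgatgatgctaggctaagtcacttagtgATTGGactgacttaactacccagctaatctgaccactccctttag

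H2-Eb1 and H2-Ob held both motifs in that order, with 27 and 25 bases between them. AGCAAC followed by ATTGG within 60 bases on 1 strand, which counts both motifs searched apart, was found in 0.798% of the 32851 promoters of the table. AGCAAC alone was in 14.8% and ATTGG alone in 37.4% of them, on either strand. ATTGG stood in 6 of the 8 member entries. It began 59 bases before the start site in H2-Eb1, 57 in H2-Ob, 48 in H2-Aa, 90 in H2-DMb2 and 61 in H2-DMb1. In an H2-DMa entry it began farther off, 198 bases before the start site. AGCAAC stood in 2 of the 8. These are matches of letters only. The promoters of H2-DMb1 and H2-DMb2, neighbouring copies of 1 gene, were equal at 215 of 345 aligned positions (62.3%).

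The whole series gave the following frame. Every CB library held between 18357578 and 24341805 counts, and CC libraries held far fewer, between 526353 and 837558. Mitochondrial genes took 0.699% to 1.40% of counts in CB and 2.24% to 5.86% in CC, and replicates correlated over genes at 0.980 and 0.987 in CB and 0.797 and 0.823 in CC (Pearson, log2 CPM). On the CPM scale (counts relative to library size, with TMM scaling) 1 count was worth 0.0467 to 0.0527 in CB and 1.19 to 1.79 in CC. For Smarca4 the CB libraries had 897 and 1002 CPM (Smarca4+/+) and 734 and 702 CPM (Smarca4+/-), and the CC libraries 322 and 316 CPM (Smarca4+/+) and 244 and 311 CPM (Smarca4+/-). Its genotype difference did not pass the test in CB (adjusted p = 1 by edgeR's quasi-likelihood test with Benjamini-Hochberg adjustment over all genes) or in CC (adjusted p = 0.607). The log2 fold changes were -0.40 in CB and -0.20 in CC. In CB the unadjusted edgeR p was under 0.05, as for 0.646% of all genes. All 12 B cell identity genes (Cd79a, Ms4a1 and others) were detected in every library, with sums of 4664 to 5996 CPM. Macrophage and monocyte markers (17 genes) summed to at least 59.5 and at most 302 CPM in CB. In CC they reached 3561 and 3534 CPM (Smarca4+/+) and 4465 and 1869 CPM (Smarca4+/-). T cell markers (16 genes) summed to 114 to 143 CPM in CB. Their CC sums were 659 and 706 CPM (Smarca4+/+) and 387 and 231 CPM (Smarca4+/-). Lck made up most of the CB sums, with 132 and 131 CPM (Smarca4+/+) and 110 and 108 CPM (Smarca4+/-). In CC, Lck had 161 and 204 CPM (Smarca4+/+) and 100 and 166 CPM (Smarca4+/-). Erythroid markers (10 genes) summed to 5.43 to 12.8 CPM in CB and 128 to 785 in CC. Dendritic cell markers (12 genes) summed to 25.4 to 33.7 CPM in CB and 80.1 to 124 in CC, where 4 to 7 of the 12 were at 0. Of the 12, Cd209a was at 0 in all 8 libraries, Xcr1, Clec9a and Zbtb46 stood at 4.74 CPM or less, and Batf3 and Clec10a at 5.34 CPM or less. Flt3 had 16.1 to 26.1 CPM in CB and 13.4 to 55.6 CPM in CC. Ccr7 had 0.288 to 1.73 CPM in CB and 3.57 to 13.1 CPM in CC. In CB, Itgax reached 1.15 CPM and Fscn1 9.14 CPM, and in CC 9.48 and 14.2 CPM, with 1 CC library at 0 for each. The part of dendritic cells in the CC levels was not tested. Dpp4, which T cells express as well, was the 1 called of the 5 that could be tested, with 0.791 to 1.68 CPM in CB and 23.7 to 42.5 CPM in CC, and Siglech had 14.3 CPM in 1 Smarca4+/+ CC library and at most 1.19 CPM elsewhere.

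Cd74, H2-Aa, H2-Ab1 and H2-Eb1 were among the most abundant transcripts of these libraries, within the first 81 of 12997 genes in every group. The other members ranked between 108 and 1228. Per kilobase of exon, Cd74 was the highest member in every group, at 2514 ± 228 (CB) and 3443 ± 78.9 (CC) CPM per kb in Smarca4+/+ and 2235 ± 29.9 (CB) and 2287 ± 397 (CC) CPM per kb in Smarca4+/- cells (SD, n = 2), which ranked it between 6 and 9 of 12997 genes. The class II chains followed, with H2-Eb1, H2-Ab1 and H2-Aa at 490 ± 66.7, 389 ± 27.1 and 264 ± 35.4 CPM per kb in Smarca4+/+ CB. That order of the chains held in 3 groups without overlap between neighbours. In Smarca4+/- CC, H2-Ab1 (403 ± 66.1) and H2-Eb1 (395 ± 61.8) overlapped. The order rests on exon lengths over all annotated transcripts, 1944 (H2-Eb1), 2568 (H2-Ab1) and 3798 (H2-Aa) bases. Before division by length, the Smarca4+/+ CB means were close, at 953 (H2-Eb1), 998 (H2-Ab1) and 1002 (H2-Aa) CPM. H2-DMb2 came next in each group, at group means of 148 to 170 CPM per kb, although it overlapped with Ctss in Smarca4+/+ CC. The remaining 5 members lay between 27.7 and 151 CPM per kb, and several neighbours among them overlapped: in Smarca4+/+ CB, Ctss (67.6 ± 3.48), H2-DMb1 (66.6 ± 4.96) and Ciita (mean 66.4) could not be put in order.

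**Figure D1:**
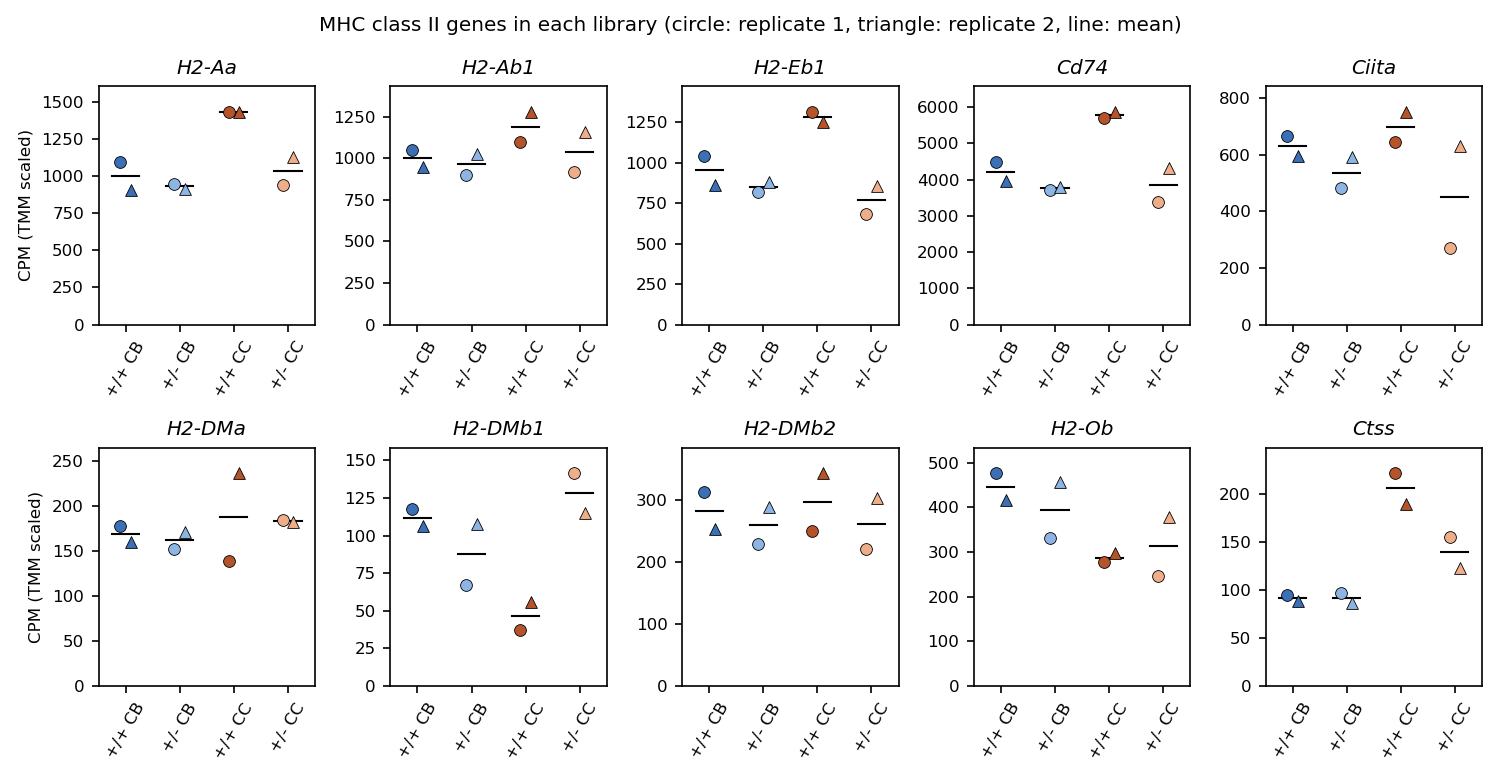
Level of each of the 10 MHC class II genes in the 8 libraries, in CPM with TMM scaling (y axes start at 0 and differ between genes). Circles are replicate 1, triangles replicate 2 and lines group means. Cd74, H2-Aa and H2-Eb1 stand higher in both Smarca4+/+ CC libraries than in all others, and H2-DMb1 is lowest in those 2 libraries.

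The first comparison asked how class II genes differ between the fractions in wild type animals. In Smarca4+/+ cells Ctss was higher in CC than in CB and H2-DMb1 was lower, and the other 8 members did not pass the test. The calls, 1 higher and 1 lower of 10, stood beside 3.72% of all genes called higher and 3.76% called lower (7.49% in all). H2-Aa, H2-Ab1, H2-Eb1 and Cd74 all had positive fold changes that missed the threshold. Without overlap between the libraries of CC and CB stood 7 of the 10 members, against 56.7% of all genes tested (18.2% higher and 38.5% lower in CC). An unadjusted p under 0.05 was found for 6 members, against 23.3% of all genes. The median log2 fold change of the members was 0.21, with 8 of 10 positive, while that of all genes was -0.19. Without Smarca4+/+ CC replicate 2 the members' median was 0.07, with 6 positive, and that of all genes -0.57. Without Smarca4+/+ CC replicate 1 these medians were 0.37 and -0.65, and with scaling by the B cell genes 0.46 and 0.06.

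Cd74 had 4492 and 3949.8 CPM in the Smarca4+/+ CB libraries and 5688 and 5875 CPM in the CC libraries. Both CC libraries lay above both CB libraries, and the log2 fold change was 0.45 (SE 0.15, edgeR adjusted p = 0.0899). H2-Aa went from 1097 and 907 CPM to 1435 and 1429 CPM (log2 fold change 0.51, SE 0.16, adjusted p = 0.082). Its CC libraries too were apart from CB. H2-Eb1 went from 1045 and 861 CPM to 1317 and 1251 CPM (log2 fold change 0.43, SE 0.17, adjusted p = 0.16), and H2-Ab1 from 1047 and 949 CPM to 1097 and 1280.0 CPM (log2 fold change 0.25, SE 0.17, adjusted p = 0.4). The CC libraries of H2-Eb1 and H2-Ab1 were above CB as well, though H2-Ab1 by a narrow gap. Cd74 and H2-Aa passed the test under 8 of the 19 alternative settings each, among them RLE scaling (adjusted p = 0.027 and 0.0297), with a range of adjusted p from 0.000202 to 0.442 for Cd74 and from 3.59e-05 to 0.439 for H2-Aa. Scaling the libraries by the 12 B cell identity genes gave log2 fold changes of 0.72 for Cd74, 0.78 for H2-Aa and 0.70 for H2-Eb1, each past the threshold (adjusted p = 0.00938, 0.016 and 0.0276).

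Ctss stood at 95.1 and 88.4 CPM in Smarca4+/+ CB and at 222 and 189.6 CPM in Smarca4+/+ CC. It rose by 1.16 on the log2 scale (SE 0.23, edgeR adjusted p = 0.0131), with no overlap. Cathepsin S is also abundant in macrophages and other phagocytes, which express class II genes too. Their markers summed to at least 1869 CPM in each CC library and at most 302 CPM in CB, and their part in the rise was not tested. In bulk RNA, a different number of cells of a type and a different amount of RNA per cell cannot be told apart. The call ended without Smarca4+/+ CB replicate 1 (adjusted p = 0.0998) or replicate 2 (adjusted p = 0.125), and the fold change was 1.04 to 1.43 over the 19 alternatives.

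H2-DMb1 stood at 118 and 106 CPM in Smarca4+/+ CB and at 37.5 and 55.6 CPM in Smarca4+/+ CC, where it rested on 21 and 34 counts. It fell by 1.26 on the log2 scale (SE 0.33, adjusted p = 0.0423), with no overlap between the fractions. Its neighbour H2-DMb2, 313 and 253 CPM in CB and 250.2 and 343 CPM in CC, had a log2 fold change of 0.07 (SE 0.24, 95% interval -0.45 to 0.60, adjusted p = 0.878). H2-DMa, the partner chain of both, had 178 and 159.8 CPM in CB and 139 and 237 CPM in CC (0.16, SE 0.25, adjusted p = 0.721), and its libraries overlapped. The H2-DMb1 call held in 6 of the 19 alternatives and ended in 13, among them RLE scaling (adjusted p = 0.0668), limma-voom (adjusted p = 0.397) and each omission of a CB or Smarca4+/+ CC library (adjusted p = 0.0534 to 0.232). The value stayed negative in all 19, down to -1.59.

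H2-Ob, the beta chain of the H2-DM inhibitor, had 477 and 416 CPM in Smarca4+/+ CB and 277 and 298 CPM in Smarca4+/+ CC. Both CC libraries were below both CB libraries, and the log2 value was -0.64 (SE 0.24, adjusted p = 0.14). Ciita had 668 and 598 CPM in CB and 645 and 754 CPM in CC, which overlapped (0.14, SE 0.30, 95% interval -0.52 to 0.81, adjusted p = 0.794). The interval of the activator reaches from a 0.697-fold to a 1.75-fold level.

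**Figure D2:**
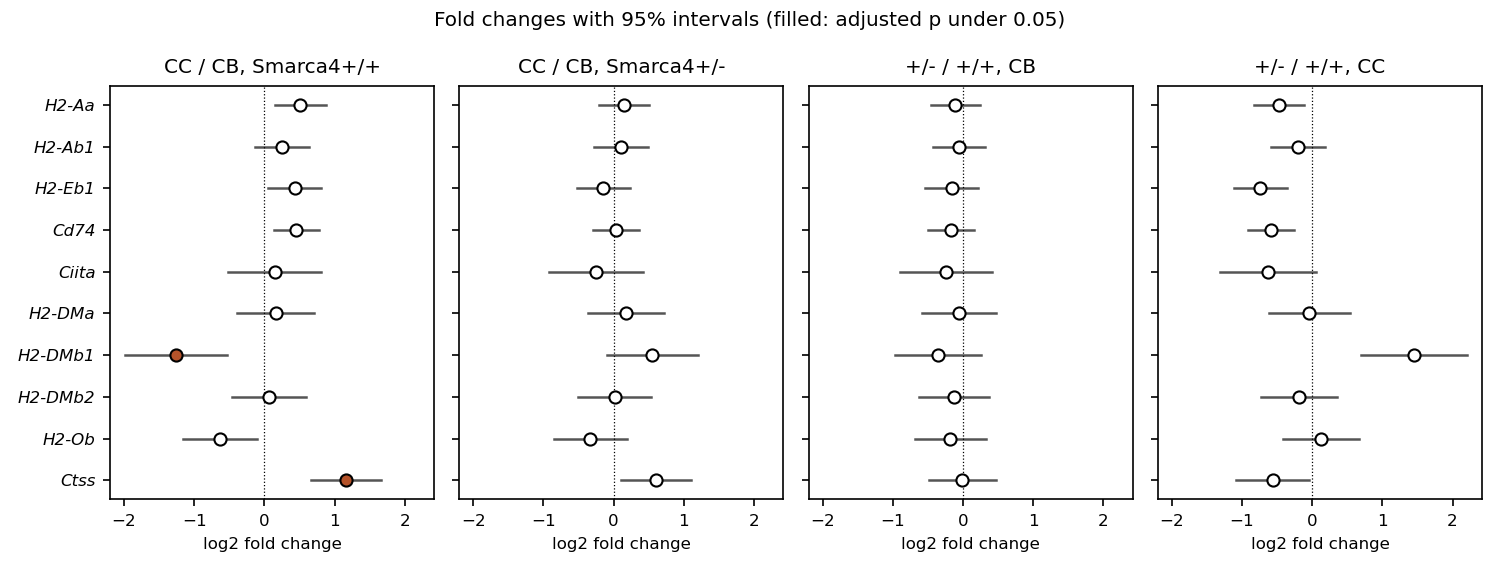
Log2 fold change of each member with its 95% interval from the edgeR fit, for CC against CB in each genotype and Smarca4+/- against Smarca4+/+ in each fraction. Filled points passed an adjusted p of 0.05: Ctss at 1.16 and H2-DMb1 at -1.26, both for CC against CB in Smarca4+/+ cells.

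The same comparison was made in Smarca4+/- cells. None of the 10 members passed the edgeR test, beside 3.67% of all genes (2.17% higher, 1.5% lower). An unadjusted p under 0.05 was found for 1 of 10, against 18.2% of all genes. DESeq2 called 1 member, where it called 1487 of all 12997 genes. Without overlap stood 3 members, Ctss, H2-DMa and H2-DMb1, all higher in CC, against 53.4% of all genes (20.2% higher, 33.2% lower). The median of the members was 0.07, and that of all genes -0.08. Without Smarca4+/- CC replicate 2 the members' median turned to -0.14, with 7 of 10 negative, while that of all genes was -0.43. Without replicate 1 these medians were 0.21 and -0.28.

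Cd74 had 3717 and 3788 CPM in Smarca4+/- CB and 3369 and 4312 CPM in Smarca4+/- CC. The CC libraries lay on either side of CB (log2 fold change 0.03, SE 0.15, 95% interval -0.29 to 0.36, adjusted p = 0.932). H2-Aa had 947 and 914 CPM in CB and 940.1 and 1128 CPM in CC (0.15, SE 0.16, adjusted p = 0.658). H2-Ab1 had 899 and 1026 CPM in CB and 915 and 1155 CPM in CC (0.10, SE 0.17, adjusted p = 0.794). H2-Eb1 was the chain with a negative value, 820.1 and 883 CPM in CB and 684 and 854 CPM in CC (-0.15, SE 0.17, adjusted p = 0.689). In all 4 genes replicate 2 of the Smarca4+/- CC group was above replicate 1. Replicate 1 was also the library with the larger macrophage sum, 4465 against 1869 CPM, and the part of other cells in the gap was not tested.

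Ctss had 96.3 and 86.3 CPM in Smarca4+/- CB and 155 and 123 CPM in Smarca4+/- CC. Both CC libraries were above CB (log2 fold change 0.61, SE 0.23, adjusted p = 0.188), and DESeq2 called the gene (adjusted p = 0.00205), within a range of 0.00205 to 0.597 over the 19 alternatives. H2-DMb1 had 67.1 and 108 CPM in CB and 142 and 115 CPM in CC. Here the CC libraries were above CB (0.55, SE 0.30, adjusted p = 0.353), opposite to the Smarca4+/+ pair. H2-DMb2 (0.01, SE 0.24), H2-DMa (0.18, SE 0.25) and H2-Ob (-0.33, SE 0.24) had adjusted p of 0.983, 0.749 and 0.476.

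Ciita differed between the 2 Smarca4+/- CC libraries more than any other member, with 271 CPM in replicate 1 (203 counts) and 631 CPM in replicate 2 (532 counts). The CB libraries had 482 and 592 CPM, between them. The log2 fold change was -0.25 (SE 0.30, adjusted p = 0.707), and without replicate 2 it was -1.01 with an adjusted p of 0.0249, so the value rests on which library is kept.

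The second question was how loss of 1 Smarca4 copy bears on these genes within a fraction. In centroblasts none of the 10 members passed the edgeR test, as was the case for all genes (0% called), and 0 of 10 had an unadjusted p under 0.05, against 0.646% of all genes. DESeq2 and limma-voom also called 0 members, beside 3 and 5 of all 12997 genes. All 10 fold changes were below 0 with TMM and RLE scaling, with a median of -0.14, but total count scaling turned 3 of them and scaling by the B cell genes 1, and without Smarca4+/+ CB replicate 1 the split was 5 and 5. Cd74, from 4492 and 3949.8 CPM in Smarca4+/+ CB to 3717 and 3788 CPM in Smarca4+/- CB, and Ciita, from 668 and 598 to 482 and 592 CPM, were the 2 members without overlap, against 32.1% of all genes (15.8% lower). Their log2 fold changes were -0.17 (95% interval -0.49 to 0.15) and -0.24 (95% interval -0.89 to 0.41). For Cd74 the interval thus leaves out a fall to below 0.711-fold.

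In centrocytes 8 of the 10 members had a negative fold change for Smarca4+/- against Smarca4+/+, some with overlapping libraries. None passed the edgeR test, beside 0.0231% of all genes. An unadjusted p under 0.05 was found for 5 members, H2-Eb1, Cd74, H2-Aa, Ctss and H2-DMb1, against 15.2% of all genes. DESeq2 called 4 (H2-Eb1, Cd74 and H2-Aa lower, H2-DMb1 higher), where it called 846 of all genes, and limma-voom called 0. Without overlap stood 6 of 10, against 32.6% of all genes (18.1% higher, 14.4% lower). The members' median was -0.33, and that of all genes 0.03. Without Smarca4+/- CC replicate 1 the members' median was -0.11, with 7 of 10 negative, and without Smarca4+/+ CC replicate 2 it was -0.29, with 6 negative. The median of all genes was 0 in both settings.

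H2-Eb1 had 1317 and 1251 CPM in Smarca4+/+ CC and 684 and 854 CPM in Smarca4+/- CC. Its log2 fold change was -0.74 (SE 0.17, 95% interval -1.12 to -0.36, edgeR adjusted p = 0.132). Cd74 had 5688 and 5875 CPM in Smarca4+/+ CC against 3369 and 4312 CPM in Smarca4+/- CC (-0.59, SE 0.15, adjusted p = 0.149). H2-Aa went from 1435 and 1429 to 940.1 and 1128 CPM (-0.47, SE 0.16, adjusted p = 0.222), while H2-Ab1, which pairs with H2-Aa on the cell surface, overlapped with 1097 and 1280.0 against 915 and 1155 CPM (-0.20, SE 0.17, adjusted p = 0.579). H2-Eb1, Cd74 and H2-Aa were lower in both Smarca4+/- libraries than in both Smarca4+/+ libraries. The negative sign of all 4 held in the 18 alternatives, with H2-Eb1 between -0.92 and -0.59 and Cd74 between -0.79 and -0.43. The adjusted p ranged from 0.000293 to 0.8 for H2-Eb1 and from 1.71e-05 to 0.811 for Cd74.

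Ctss had 222 and 189.6 CPM in Smarca4+/+ CC and 155 and 123 CPM in Smarca4+/- CC (log2 fold change -0.56, SE 0.24, adjusted p = 0.297). Ciita went from 645 and 754 CPM to 271 and 631 CPM (-0.63, SE 0.31, adjusted p = 0.358), no overlap in either gene. Over the alternatives the Ciita value ran from -1.38 to -0.16. The macrophage sum was higher in 1 Smarca4+/- CC library (4465 CPM) and lower in the other (1869 CPM) than in the Smarca4+/+ CC libraries (3561 and 3534 CPM), and the T cell sum was lower in both (387 and 231 against 659 and 706 CPM). The part of these cells in the lower class II values was not tested. B cell identity genes summed to 4743 and 5628 CPM in Smarca4+/- CC and to 4664 and 4965 CPM in Smarca4+/+ CC, and after scaling by them the log2 fold changes were -0.85 for H2-Eb1, -0.70 for Cd74 and -0.58 for H2-Aa.

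H2-DMb1 was the member with the largest positive value, and H2-Ob the other positive one. H2-DMb1 had 37.5 and 55.6 CPM in Smarca4+/+ CC and 142 and 115 CPM in Smarca4+/- CC, on 21, 34, 106 and 97 counts. The log2 value was 1.45 (SE 0.34, 95% interval 0.70 to 2.21, edgeR adjusted p = 0.132). Both Smarca4+/- libraries were above both Smarca4+/+ libraries, and the sign held in the 18 alternatives (1.19 to 1.76, adjusted p = 0.00736 to 0.775). H2-DMb2 (250.2 and 343 against 220.3 and 302 CPM, -0.18, SE 0.25), H2-DMa (139 and 237 against 184 and 183 CPM, -0.04, SE 0.26) and H2-Ob (277 and 298 against 246 and 379 CPM, 0.12, SE 0.25) overlapped between the genotypes.

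The share of H2-DMb1 among the counts of both DMb genes does not depend on how libraries are scaled. In CB it was 27.4% and 29.5% (Smarca4+/+) and 22.7% and 27.1% (Smarca4+/-). In Smarca4+/+ CC it was 13.0% (95% Wilson interval 8.69% to 19.1%) and 13.9% (10.1% to 18.8%), and in Smarca4+/- CC 39.1% (lower bound 33.5%) and 27.6% (lower bound 23.2%). The Smarca4+/+ CC libraries had the lowest shares of the 8 libraries, and their intervals, which cover counting error only, did not reach those of the other 6. H2-DMb1 and H2-DMb2 lie side by side on chromosome 17 (mm10, 34153072 to 34160230 and 34143307 to 34151555). Of all 50-base stretches of the annotated H2-DMb1 transcripts, 22.7% also occur in H2-DMb2 transcripts. For stretches of 75 and 100 bases the shares were 15.8% and 11.3%. Reads from such shared stretches could be given to either gene or dropped, so levels of both are uncertain. H2-DMa took 35.8% to 45.5% of the counts of H2-DMa and H2-DMb2 in all 8 libraries, and H2-Aa 47.1% to 56.7% of those of H2-Aa and H2-Ab1. Of the counts of H2-Aa and H2-Eb1, H2-Aa took 57.9% and 56.9% in Smarca4+/- CC and 50.9% to 53.6% in the other 6 libraries. H2-Ob took 77.5% (71.2% to 82.7%) and 83.5% (78.0% to 87.8%) of the counts of H2-Ob and H2-Oa in Smarca4+/+ CC and 88.9% to 91.4% in the other 6.

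**Figure D3:**
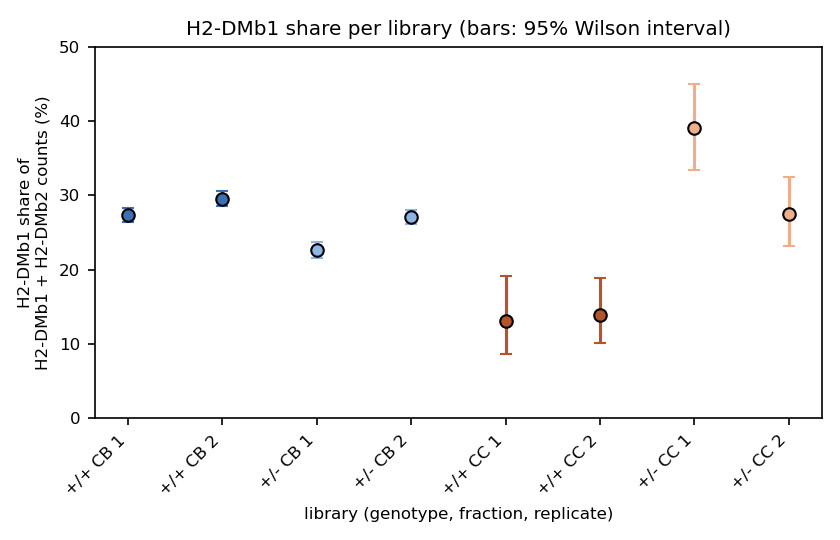
Share of H2-DMb1 in the summed counts of H2-DMb1 and H2-DMb2 in each library (percent, y axis from 0), with 95% Wilson intervals for counting error. The 2 Smarca4+/+ CC libraries stand at 13.0% and 13.9%, and the other 6 between 22.7% and 39.1%.

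Whether the CC to CB change differed between genotypes was tested as an interaction. None of the 10 members passed the edgeR test (0% of all genes did), and 2 had an unadjusted p under 0.05, H2-DMb1 and H2-Eb1, against 9.19% of all genes. DESeq2 called 1 member, H2-DMb1, where it called 339 of all 12997 genes. The H2-DMb1 interaction was 1.81 on the log2 scale (SE 0.44, 95% interval 0.84 to 2.79, unadjusted p = 0.00175 and adjusted p = 0.419 by edgeR, 0.0204 to 1 over the 18 alternatives). That of H2-Eb1 was -0.58 (SE 0.24, adjusted p = 0.517) and that of Cd74 -0.42 (SE 0.21, adjusted p = 0.564). The fractions were therefore not shown to differ from each other in their response to genotype.

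Other genes of class II presentation were read from lists. H2-Oa, the alpha chain of H2-O, had 38.6 to 52.2 CPM in CB, and in CC 80.4 and 58.8 CPM (Smarca4+/+) and 29.4 and 35.6 CPM (Smarca4+/-). Its genotype value in CC was -1.09 (SE 0.36, adjusted p = 0.206), on 22 to 45 counts a library. H2-Eb2 stood at 80.1 to 132 CPM in all libraries, and H2-Ea-ps, the E alpha gene that is silent in C57BL/6, at 0.711 CPM or less. Of H2-Oa and H2-Eb2, the 2 of these 3 that could be tested, none passed in any comparison. Counts give RNA only, so H2-Eb1 values do not tell of surface protein where E alpha is silent.

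Among 11 endosomal proteases and helpers, 3 rose in CC in Smarca4+/+ cells and 2 in Smarca4+/- cells, beside 3.72% and 2.17% of all genes, with medians of 0.82 and 0.69 against -0.19 and -0.08 for all genes. Ctsb rose by 3.31 on the log2 scale in Smarca4+/+ cells (SE 0.46, adjusted p = 0.00274) and passed in Smarca4+/- cells as well (adjusted p = 0.00359), Ctsd with 3.54 (SE 0.46) and 2.97 (SE 0.45), and Ctsa, in Smarca4+/+ cells, with 1.32 (SE 0.28, adjusted p = 0.0176). These lysosomal proteases are abundant in macrophages. Ctsb had 1175 CPM in Smarca4+/- CC replicate 1 and 345 CPM in replicate 2, where the macrophage sums were 4465 and 1869 CPM, and Ctss had 155 and 123 CPM in the same pair. The part of macrophages was not tested. Ifi30, the thiol reductase of the pathway, had 0.82 (SE 0.23, adjusted p = 0.056) and 0.64 (SE 0.23, adjusted p = 0.165). Lgmn, an asparaginyl protease that also cuts the invariant chain, had 0.51 (SE 0.23, adjusted p = 0.199) and -0.05 (SE 0.23, adjusted p = 0.929).

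None of 8 genes for class II promoter factors (RFX, CREB and NF-Y proteins) passed the edgeR test in any of the 5 contrasts. Rfx5 stood at 109.5 to 182 CPM in all libraries, and its largest fold change was -0.32 (SE 0.24, adjusted p = 0.531), for genotype in CC. Among 12 regulators of Ciita or its targets, Irf4 rose (1.77, SE 0.33, adjusted p = 0.0109) and Ezh2, a histone methyltransferase of dividing germinal centre cells, fell (-1.03, SE 0.24, adjusted p = 0.0263) in Smarca4+/+ CC, beside 3.72% and 3.76% of all genes, and none passed in the other contrasts. Irf8, which with PU.1 acts on B cell enhancers, had 413 to 581 CPM in all libraries. Irf1, a factor of interferon-driven Ciita induction, had a genotype value in CC of -0.92 (SE 0.37, adjusted p = 0.285), lower without overlap.

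MHC class I genes gave a point of reference. Of 18, 5 rose in CC in Smarca4+/+ cells, beside 3.72% of all genes: B2m, the light chain (1.44, SE 0.26, adjusted p = 0.00951), H2-K1 (1.39, SE 0.21, adjusted p = 0.00353), H2-Q7, Calr and Tapbp. In Smarca4+/- cells none passed, beside 2.17% of all genes called higher, with a median of 0.47 against 0.69 in Smarca4+/+ cells. The genotype values in CC were negative for 16 of 18, with a median of -0.34, and none passed. H2-K1 went from 645 and 956 CPM to 523 and 433 CPM (-0.75, SE 0.21, adjusted p = 0.167). Class I genes are expressed by nearly all nucleated cells, and the part of macrophages and T cells in their CC levels was not tested.

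**Figure D4:**
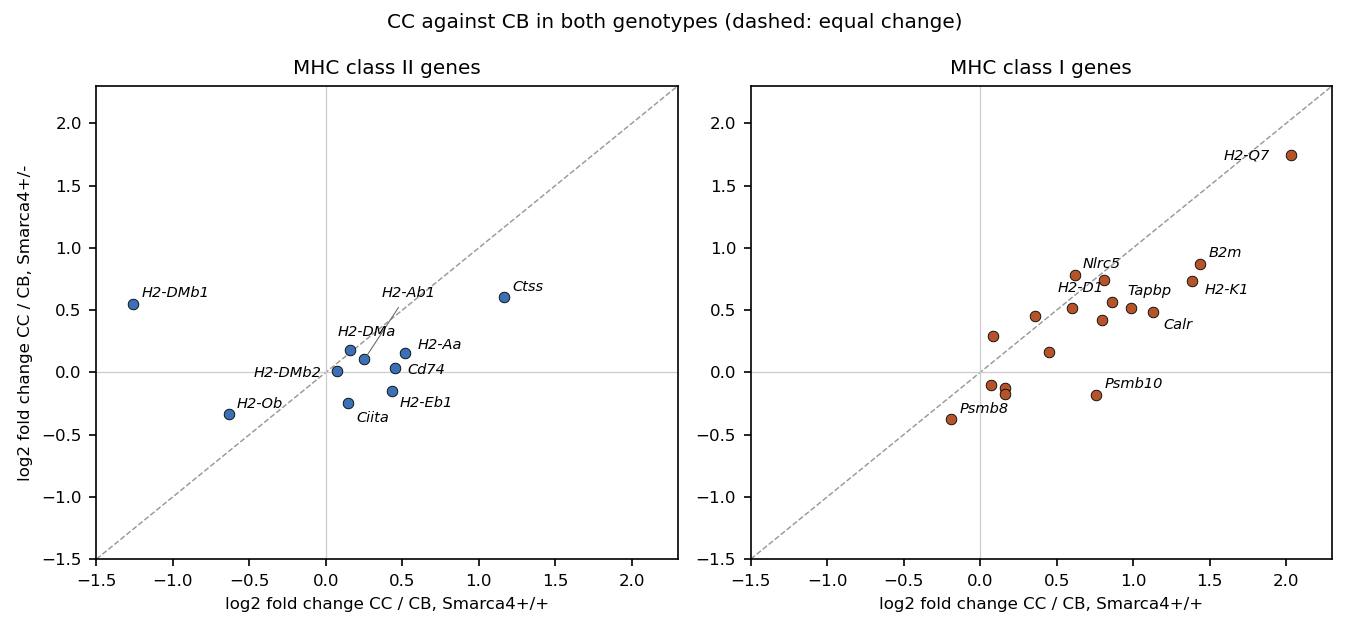
Log2 fold change of CC against CB in Smarca4+/+ cells (x axis) and in Smarca4+/- cells (y axis) for the 10 class II genes (left) and 18 class I genes (right). The dashed line marks equal change. H2-DMb1 stands alone in the upper left of the class II panel at -1.26 and 0.55.

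The genes whose pattern over the 8 libraries lay nearest to the summed CPM of H2-Aa, H2-Ab1, H2-Eb1 and Cd74 were sought by the root mean square distance of centred log2 CPM, among the 6270 genes that averaged 20 CPM or more. In Smarca4+/+ cells the sum was 7681 and 6667 CPM (CB) and 9537 and 9834 CPM (CC), and in Smarca4+/- cells 6383 and 6612 CPM (CB) and 5908 and 7448 CPM (CC). The nearest genes were Tmbim6 (distance 0.0937), Ikbkb (0.0949), Irf5 (0.0958), Sp110 (0.107) and Pdha1 (0.111). H2-DMb1 was the member farthest from that sum, at 0.813, and 82.1% of the 6270 genes were nearer. Ciita was at 0.302, with 13.7% of genes nearer, and H2-Ob at 0.445, with 38.7% nearer.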

How the data were processed

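The authors deposited raw read counts per gene for 8 libraries, made from ribosome-depleted total RNA. Per the submitters' processing notes the tools were FastQC, STAR, featureCounts, Subread and R 4.2.1, with build mm10. How strand and multiply mapped reads were handled is not given in the sources used. The other deposited value, a gene length in bases, served to scale levels per kilobase. Of 55421 identifiers, 55154 had a symbol in GENCODE M21. H2-DMa shares 10.4% of its exon bases with Brd2 and Ciita 3.45% with Dexi, on the opposite strand, so their levels are uncertain.

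The analysis used edgeR 4.0.16 (R 4.3.3). Low genes were dropped with filterByExpr at a count of 10 and a total of 15, and TMM factors scaled the libraries. All 8 libraries entered 1 quasi-likelihood fit of 4 group means. Its 5 contrasts were 2-sided, and p-values were adjusted by the Benjamini-Hochberg method over 12997 genes, with a threshold of 0.05. The F statistic gave each standard error, and a t quantile the 95% interval. A count of 0 allowed up to 3 counts, 3.56 to 5.36 CPM per CC library. Members, lists and tests were chosen with earlier results of these data known. Named genes were all members, up to 4 called members of a list by p (otherwise the 2 most abundant) and the 5 nearest patterns. Further genes (among them H2-Oa, H2-Ea-ps, Ifi30, Lgmn, Irf8, Irf1 and March1) were picked after their values were seen. Alternatives were DESeq2 1.42.0, limma-voom (limma 3.58.1), other scalings and filters, and a replicate block over all groups or within genotype. Further ones were only the groups compared, CB thinned to 657641 counts, and each library left out.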

Additional observations from a re-analysis of the deposited data

Results flagged for a closer look

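H2-DMb1 was the 1 member of 10 whose CC libraries lay all below CB in Smarca4+/+ cells (37.5 and 55.6 against 118 and 106 CPM) and all above CB in Smarca4+/- cells (142 and 115 against 67.1 and 108 CPM). Of all genes tested, 6.98% showed such an opposite order. The test of the difference itself, the interaction, gave 1.81 on the log2 scale and missed the threshold (edgeR, adjusted p = 0.419).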

How the results depend on the processing

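Of 92 recomputed counts of called members, 74 stayed within 1.5 times of the reported count, or at 0 where it was 0. The reported count was 0 in every contrast except CC against CB in Smarca4+/+ cells, so the ratio applies to that contrast only. For CC against CB in Smarca4+/+ cells (2 called) the count was 5 with DESeq2, beside 2167 of all 12997 genes. It was 5 without the low count filter (1651 of 21554 genes) and 4 with scaling by the B cell genes (856 of 12997). It was 1 with limma-voom (700 of 12997) and with only the groups compared (292 of 11953). For genotype in CC (0 called) it was 4 with DESeq2 (846 of 12997) and 3 without the filter (323 of 21554). With DESeq2 it was 1 for CC against CB in Smarca4+/- cells (1487 of 12997) and 1 for the interaction (339 of 12997), where 0 were reported in each. Leaving out each library in turn gave 0 to 4 calls in Smarca4+/+ cells (0 without either Smarca4+/+ CB library), 0 to 1 in Smarca4+/- cells, and 0 to 0 in the other contrasts. Of 920 recomputed member values, 15 lost a call, 29 gained one, and 0 called values changed sign. Over all genes, calls ran from 222 to 2167 for the first contrast (973 reported), 0 to 1487 for Smarca4+/- cells (477), 0 to 846 for genotype in CC (3), 0 to 13 for genotype in CB (0) and 0 to 339 for the interaction (0). The split of higher and lower genes in Smarca4+/+ cells was 484 and 489 with TMM, 541 and 367 with RLE, 568 and 289 with total counts and 602 and 254 with the B cell genes, and the median of all genes moved from -0.19 to -0.07 with RLE. In Smarca4+/- cells it was 282 and 195, 305 and 122, 326 and 99, and 300 and 107. With a replicate block over all groups the counts of called members were 2 in Smarca4+/+ cells and 0 in the other contrasts. Deviations from the group mean correlated at -0.0352 to 0.0473 between same-numbered libraries. With 2 libraries a group and few CC counts, such values cannot tell whether same-numbered libraries came from 1 animal. A replicate block within genotype called 966 of all genes in Smarca4+/+ cells, 576 in Smarca4+/- cells and 13 for the interaction. CC levels of H2-DMb1 and H2-Oa are limited by 21 to 106 counts a library.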

Other observations

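Some genes that act on the turnover and trafficking of class II molecules differed between the fractions. Cd83, which shields class II molecules from degradation, rose in CC in Smarca4+/- cells (from 118 and 131 to 235 and 357 CPM, log2 fold change 1.25, SE 0.26, edgeR adjusted p = 0.0229) and had 0.61 (SE 0.26, adjusted p = 0.186) in Smarca4+/+ cells. The tetraspanin Cd82 rose in both genotypes (1.40, SE 0.25, and 1.64, SE 0.25). March1, a ubiquitin ligase that removes class II molecules from the surface, had 180.5 and 160.2 CPM in Smarca4+/+ CC and 113 and 88.9 CPM in Smarca4+/- CC, a genotype value of -0.75 (SE 0.23, adjusted p = 0.195). Of the 8 tested genes of this list 1 rose in Smarca4+/+ CC and 2 in Smarca4+/- CC, beside 3.72% and 2.17% of all genes.

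Among 11 tested ligands and receptors of T cell help, Cd86 rose in CC in both genotypes (1.00, SE 0.24, adjusted p = 0.032, and 1.22, SE 0.24, adjusted p = 0.0207) and Cd274, the PD-L1 gene, in Smarca4+/+ cells (2.47, SE 0.67, adjusted p = 0.0471), which makes 2 and 1 called beside the same shares of all genes. Their genotype differences in CC did not pass the test, and macrophages also express both genes.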
